A study of Mus musculus with 12 samples.

Results

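The antioxidant and NRF2 target genes are 35 listed genes whose products remove superoxide and peroxides, keep glutathione and thioredoxin reduced, conjugate electrophiles or store metals, together with the regulators NFE2L2 (NRF2) and KEAP1. They were found by gene symbol in the array annotation, and the brightest probe set of each gene, by its mean over 12 arrays, was used. Of the 35 genes, 31 were measured, and all 31 lay above the filter on dim probe sets, among 12672 genes tested in all. Prdx1 and Ftl1 had only probe sets that the annotation shares with another gene, and Prdx5 and Prdx6 were not listed with a probe set of their own, so these 4 are not analysed here.

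The arrays measured cerebellar RNA of mice aged 6 weeks on a C57BL/6 background. The 4 groups of 3 arrays were compared were MPI 118Q/118Q knockin mice, their wild type littermates, MPI 11Q/11Q knockin mice, and their wild type littermates. Both knockin alleles lie in Cacna1a, the gene of the P/Q-type calcium channel whose expanded glutamine tract causes spinocerebellar ataxia type 6, and the knockin mice carried them on both chromosomes. The 11Q allele carries a tract of normal length. Each comparison with littermates holds the whole knocked-in sequence, not only the repeat. The labels give 1 threshold of RNA integrity that all samples passed and no value for each.

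NRF2 is a transcription factor that KEAP1 holds in the cytoplasm and hands over for degradation. When oxidants or electrophiles modify KEAP1, NRF2 accumulates, pairs with small MAF proteins and binds the antioxidant response element in front of its target genes. Nqo1, Hmox1, Gclc, Gclm, Srxn1, Txnrd1 and Slc7a11 are among its inducible targets. In the brain, astrocytes are known for a stronger NRF2 response than neurons.

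The core of the antioxidant response element reads TGACNNNGC. It was searched on both strands of RefSeq promoters (GRCm38.p6), each 300 bases long, from 250 bases before the transcript start to 50 after it. Of the 35 genes, 30 had a promoter in the table, and 8 of these (26.7%) held the core, against 3781 of 27025 genes (14.0%) in the whole table. The sites are shown because they match this core. Each runs 5′ to 3′ in the direction of the gene, with 10 bases on either side and the 9 matching bases in capitals. GC at the left end of the capitals means that the core lies on the opposite strand.

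Gstm5, chr3:107895802-107895830, + strand: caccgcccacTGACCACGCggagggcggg
Nfe2l2, chr2:75704885-75704913, - strand: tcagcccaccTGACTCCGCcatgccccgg
Prdx1, chr4:116685456-116685484, + strand: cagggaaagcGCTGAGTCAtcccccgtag
Gclm, chr3:122245413-122245441, + strand: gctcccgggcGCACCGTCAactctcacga
Mgst1, chr6:138140461-138140489, + strand: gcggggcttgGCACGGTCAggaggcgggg
Sod1, chr16:90220696-90220724, + strand: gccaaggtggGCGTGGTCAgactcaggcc
Srxn1, chr2:152105542-152105570, + strand: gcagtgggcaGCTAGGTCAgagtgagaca
Txnrd1, chr10:82859104-82859132, + strand: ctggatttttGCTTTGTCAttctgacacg

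A match is a description of the letters and not a measured binding site. The Gstm5 promoter is given whole because Gstm5 had the smallest p-value in 2 of the comparisons that follow. Its match starts 42 bases before the transcript start. The promoter lies at chr3:107895604-107895903 on the + strand.

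Gstm5 promoter: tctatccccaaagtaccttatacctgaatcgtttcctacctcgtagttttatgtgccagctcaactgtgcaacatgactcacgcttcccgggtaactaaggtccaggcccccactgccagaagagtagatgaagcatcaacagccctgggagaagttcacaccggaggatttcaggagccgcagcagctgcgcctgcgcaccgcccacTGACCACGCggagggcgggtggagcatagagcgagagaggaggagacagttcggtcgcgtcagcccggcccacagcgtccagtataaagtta

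In the 118Q line, most members read higher in the knockin than in its littermates, by small amounts, and no member passed the test over all genes. The comparison asks what the knocked-in allele with the long repeat changes in its own line. The 31 members had a median log2 difference of 0.18, against 0.06 for all 12672 genes. Their differences ran from -0.28 (Cat) to 0.60 (Gstm1), and 27 of 31 were above 0, where 60% of all genes were. limma called 0 of 31 members at an adjusted p below 0.05, against 0.189% of all genes. With array weights it called 7, where 24.7% of all genes were called. At an unadjusted p below 0.05 there were 10 members (32.3%, against 18.7% of all genes), of which 9 were higher (29.0%, against 12% of all genes) and 1 was lower (3.23%, against 6.7%). That count was 4 without 118Q knockin replicate 3, 5 without 118Q knockin replicate 2 and 5 without 118Q wild type replicate 3. In 12 members all 3 knockin arrays lay above all 3 littermate arrays (38.7%, against 15.1% of all genes), and in 0 members did they all lie below (7.24% of all genes).

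The members also shifted as a set of arrays. As deviations from the mean of 12 arrays, the median over the members was 0.18, 0.13 and 0.16 in the 118Q knockin arrays, and -0.06, 0.03 and -0.05 in those of its littermates. The 3 knockin arrays were the highest of the 12. The 11Q knockin arrays had medians of -0.04, -0.08 and -0.14, and the 11Q wild type arrays -0.08, -0.12 and -0.0021. The 18S ribosomal RNA control signal was lower in the 118Q knockin, with a log2 level of 8.80 ± 0.37 in the 118Q knockin and 9.92 ± 0.35 in the 118Q wild type (SD, n = 3 each), and the groups did not overlap. In the 11Q line it read 10.2 ± 0.13 in the knockin and 10.4 ± 0.17 in its littermates, with overlap. The member medians there averaged -0.09 ± 0.05 and -0.06 ± 0.06 (SD, n = 3 each), also with overlap. The length of the gene body in the genome moved with the group as well. Over the genes of each array, which are not independent replicates, deviations were ranked against this span. Spearman's rho had a mean of -0.29 for the 118Q knockin arrays and 0.04 for the 118Q wild type arrays. In the 11Q line its mean was 0.15 for the knockin arrays and 0.20 for the wild type arrays. The members are short genes, with a median span of 10473 bases against 23957 for all genes with a span. With the 18S signal as covariate, which overlaps with the grouping and widens the errors, the member median was 0.11 and that of all genes 0.08, with 1 member at an unadjusted p below 0.05. With the span trend removed it was 0.098, with 4 such members, and the median of all genes was 0.01. Single members moved unequally. With the 18S covariate, Gstm1 differed by 0.14, Gsta4 by 0.12, Mgst3 by 0.06 and Fth1 by 0.04, against 0.60, 0.31, 0.33 and 0.23 without it, while Gclm differed by 0.25 and Keap1 by 0.32. With the span trend removed, Gstm5 differed by 0.28, Gpx1 by 0.11, Fth1 by 0.08 and Keap1 by 0.04.

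**Figure D1:**
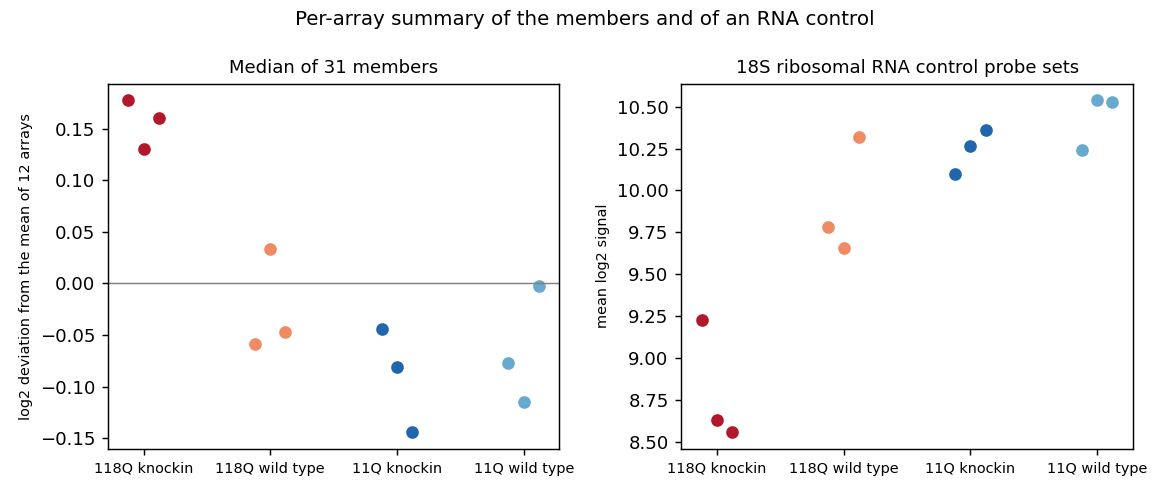
Left, median over 31 members of the log2 deviation from the mean of 12 arrays; right, mean log2 signal of the 18S ribosomal RNA control probe sets. Each point is 1 array, 3 in each group; the 118Q knockin arrays lie highest on the left (0.13 to 0.18) and lowest on the right (mean 8.80).

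Among the enzymes that reduce peroxides with glutathione, all 3 measured glutathione peroxidases lay above 0 in the 118Q comparison. Gpx4, the selenoenzyme that reduces lipid peroxides in membranes, had log2 levels of 9.56, 9.67 and 9.65 in the 118Q knockin, against 9.22, 9.31 and 9.01 in its littermates. The groups did not overlap, and every knockin array was also above all 6 arrays of the 11Q line, which read 9.09 to 9.20. Its difference was 0.44 ± 0.10 log2 units (SE), a fold of 1.36, with an adjusted p of 0.0678 by limma. A further Gpx4 probe set, of a kind that can cross-hybridise, differed by the same 0.44. Gpx4 passed without 118Q knockin replicate 1 (0.48, adjusted p = 0.0313 by limma). In that fit 5.58% of all genes were called, against 0.189% with all arrays. With the 18S covariate Gpx4 differed by 0.14.

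Gpx1, the abundant cytosolic selenoenzyme that reduces hydrogen peroxide, read 7.65, 8.02 and 7.92 in the 118Q knockin and 7.41, 7.47 and 7.66 in its littermates. The lowest knockin array lay just under the highest littermate array, and the difference was 0.35 ± 0.13 (adjusted p = 0.175 by limma). Gpx3, the secreted plasma form, was the most variable member, with a 95% interval of -0.78 to 1.42 for its difference of 0.32.

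**Figure D2:**
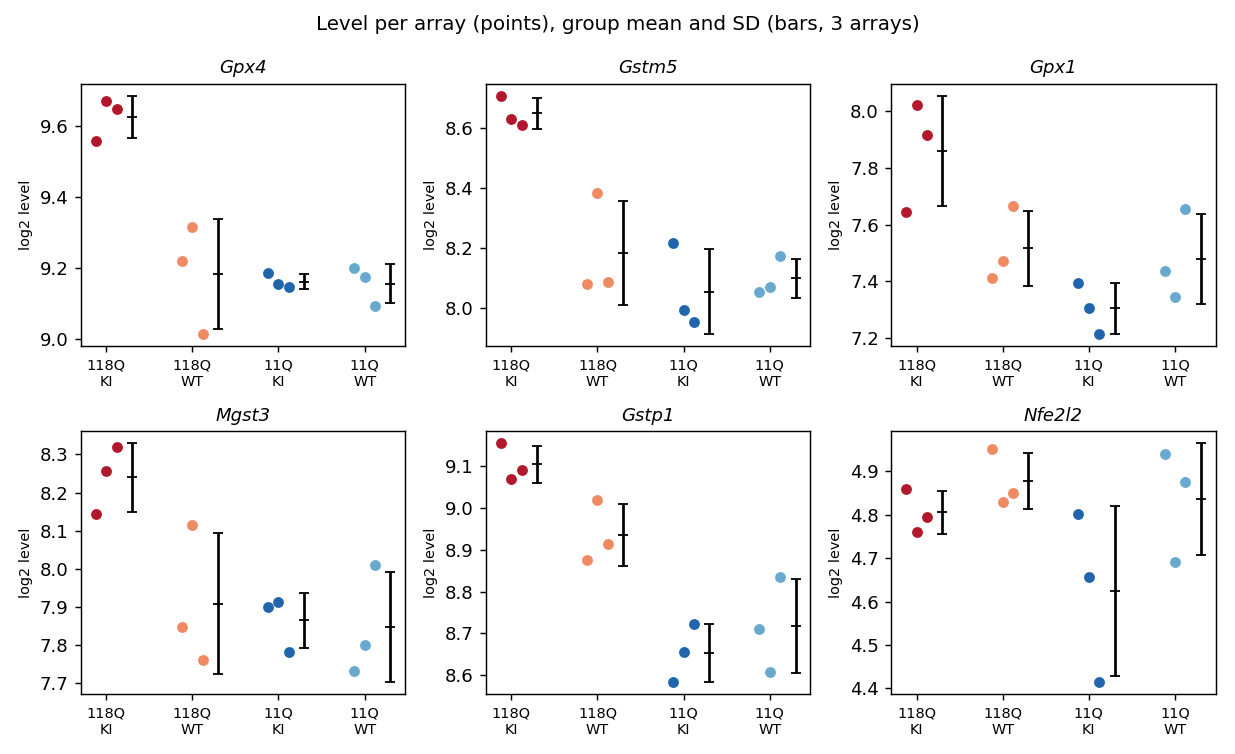
Log2 level of 6 genes in each of the 12 arrays, with 118Q knockin, 118Q wild type, 11Q knockin and 11Q wild type from left to right. Points are arrays and bars are the group mean with its SD over 3 arrays; Gpx4 in the 118Q knockin (9.56 to 9.67) lies above the other 9 arrays, and Nfe2l2 overlaps between the 118Q groups.

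Glutathione S-transferases, which join glutathione to electrophiles, showed the same direction in all 6 measured members, with a median of 0.32. Gstm5, a mu-class transferase, read 8.71, 8.63 and 8.61 in the 118Q knockin and 8.08, 8.38 and 8.08 in its littermates. The groups did not overlap, and the difference was 0.47 ± 0.11 (fold 1.38, adjusted p = 0.0705 by limma). Gstm1, another mu-class enzyme, read 8.50, 8.50 and 8.25 in the 118Q knockin and 7.89, 7.93 and 7.62 in its littermates. The groups did not overlap, and its difference of 0.60 ± 0.22 was the largest of the members on the log2 scale, but did not pass (adjusted p = 0.174). The mu-class genes resemble each other in sequence and Gstm1 was read by a probe set of the kind that can cross-hybridise, so its signal may include close relatives. Of its other probe sets, 1 differed by 0.54, 1 by 0.09 and 1 by 0.04.

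Mgst3, a membrane-bound transferase and peroxidase, read 8.14, 8.26 and 8.32 in the 118Q knockin and 7.85, 8.12 and 7.76 in its littermates (0.33 ± 0.12, adjusted p = 0.167). Gsta4, which clears the lipid peroxidation product 4-hydroxynonenal, read 6.75, 6.68 and 6.73 in the knockin, against 6.41, 6.51 and 6.30 in littermates (0.31 ± 0.14, adjusted p = 0.251). Neither gene overlapped between these groups. Gstp1, the pi-class enzyme, differed by 0.17 (adjusted p = 0.366), also without overlap, and Mgst1 by 0.18 with overlap.

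Genes that supply and recycle glutathione lay nearer to 0. All 6 were above 0, with a median of 0.15 and a range of 0.04 to 0.27. Gclm, the modifier subunit of the enzyme that makes the glutathione precursor, read 7.40, 7.18 and 7.29 in the 118Q knockin and 7.10, 7.12 and 6.85 in its littermates, without overlap. Its difference was 0.27 ± 0.11 (adjusted p = 0.209 by limma), and a dimmer Gclm probe set differed by -0.13. Gclc, the catalytic subunit, differed by 0.12 without overlap. Gss, glutathione synthetase, differed by 0.12, Gsr, glutathione reductase, by 0.17, Glrx, glutaredoxin, by 0.19 and Slc7a11, the cystine importer, by 0.04.

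In the thioredoxin and peroxiredoxin branch, which reduces peroxides through protein cysteines, Prdx4, the peroxiredoxin of the endoplasmic reticulum, stood farthest from 0. It read 6.52, 6.53 and 6.40 in the 118Q knockin and 6.16, 6.16 and 6.23 in its littermates, without overlap (0.30 ± 0.11, adjusted p = 0.18 by limma). Its 2 dimmer probe sets differed by -0.26 and -0.07, and their mean with the brightest gave -0.01. Srxn1, which repairs overoxidised peroxiredoxins, differed by 0.23, Txn1, cytosolic thioredoxin, by 0.20 and Txnrd1, its reductase, by 0.01. The mitochondrial enzymes Prdx3, Txn2 and Sod2 differed by -0.13, 0.098 and -0.0028, and none of the 3 had an unadjusted p below 0.05.

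Cat, the peroxisomal enzyme that splits hydrogen peroxide, was the member with the lowest difference. It read 5.97, 5.61 and 5.77 in the 118Q knockin and 5.96, 6.08 and 6.15 in its littermates, with a small overlap (-0.28 ± 0.11, adjusted p = 0.215 by limma). A dimmer Cat probe set differed by -0.64. With the 18S signal as covariate the difference was 0.04. Sod1, the cytosolic superoxide dismutase, differed by 0.14, and its knockin and littermate arrays did not overlap. Dimmer Sod1 probe sets differed by -0.19, -0.18 and 0.15.

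None of the regulators passed the test in the 118Q line, and neither did any inducible target. Nfe2l2, which codes for NRF2, read 4.86, 4.76 and 4.80 in the 118Q knockin, against 4.95, 4.83 and 4.85 in its littermates (-0.07, 95% interval -0.32 to 0.18). Keap1, its inhibitor, read 5.96, 5.89 and 5.84 in the knockin and 5.71, 5.72 and 5.81 in littermates, without overlap (0.14, 95% interval -0.05 to 0.34). The 7 inducible targets had a median of 0.12, and all 7 were above 0. By their brightest probe sets, 1 of these (Gclm) had an unadjusted p below 0.05. Slc7a11 and Hmox1 were dim, with knockin means of 2.05 and 2.47 and littermate means of 2.02 and 2.36, where the filter lay at 1.58. A dimmer Gclc probe set differed by -0.015. Dimmer Srxn1 probe sets differed by 0.31 (unadjusted p = 0.0245 by limma), 0.21 and -0.17. Nqo1, a quinone reductase, differed by 0.38 with knockin arrays of 4.17, 3.56 and 3.54 against 3.42, 3.07 and 3.63 in littermates, with 1 knockin array above the rest and the others within the littermates' range. Hmox1, which degrades haem, differed by 0.11. Fth1, the ferritin heavy chain, read 11.31, 11.37 and 11.42 in the 118Q knockin and 11.17, 11.17 and 11.06 in its littermates, without overlap (0.23 ± 0.09, adjusted p = 0.205 by limma), and a dimmer probe set differed by 0.11. Mt3, the metallothionein of the brain, differed by 0.32 with overlap.

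Members whose promoter held the element core had a median of 0.18 in the 118Q line (7 measured, range -0.07 to 0.47). Those whose promoter did not had a median of 0.20 (20 measured, range -0.28 to 0.60). None of the 4 Gpx4 promoters in the table held the core.

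**Figure D3:**
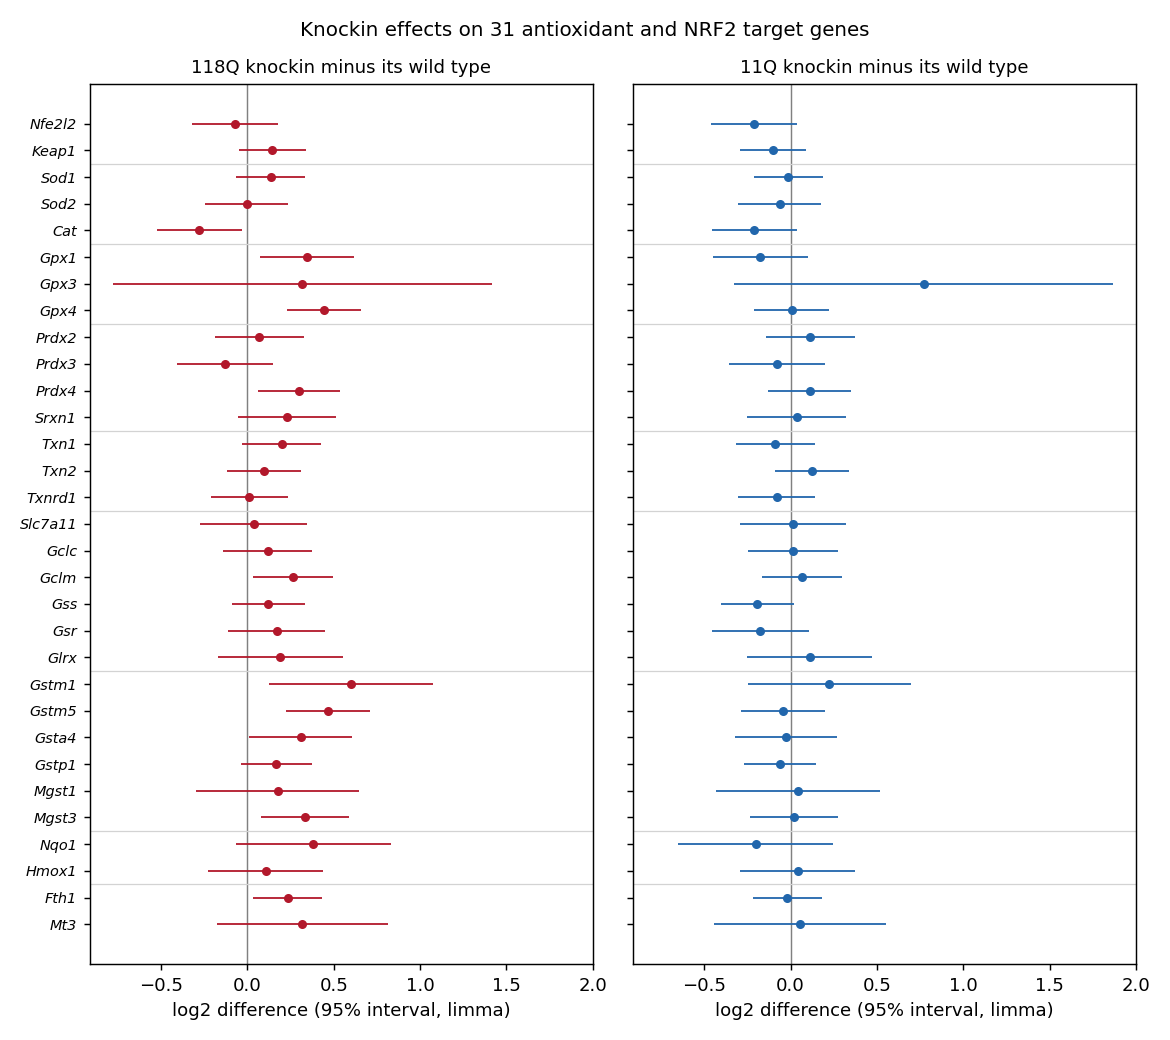
Log2 difference of each of 31 members with its 95% interval from limma, for the 118Q knockin minus its wild type (left) and the 11Q knockin minus its wild type (right); grey lines separate roles. On the left 27 of 31 points lie above 0, and on the right 15 of 31.

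Probe sets of the same gene did not always run together. Beyond the brightest, the members had 26 further probe sets above the filter, of which 17 had the same sign as the brightest in the 118Q comparison and 9 the opposite. For Sod2, 1 of the dimmer probe sets differed by -0.50 while the brightest stood at -0.0028.

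Markers of some cell types moved with the 118Q knockin. On the linear scale, the summed level of 9 of 10 microglia markers was 285 to 368 in the 118Q knockin arrays and 225 to 256 in its littermates. All 9 markers were above 0 in the comparison, and Aif1 was not measured. The summed level of 8 of 10 Purkinje cell markers was 6839 to 8263 in the knockin and 8722 to 9338 in littermates, with 1 of 8 above 0. That of 10 of 10 endothelial and mural markers was 382 to 442 in the knockin and 465 to 585 in littermates, with 0 of 10 above 0. The Purkinje cell and granule cell markers that define this tissue were present in every array, and the granule cell sum was 7198 to 7941 in the knockin and 7766 to 8241 in littermates. Choroid plexus markers varied widely within both groups, at 469 to 3800 in the knockin and 133 to 4240 in littermates. Sums of the 10 astrocyte and Bergmann glia markers overlapped, at 4952 to 5152 in the knockin and 5092 to 5627 in littermates. Oligodendrocyte sums overlapped too, at 5584 to 6004 and 4910 to 6569, with 6 of 9 markers above 0. So did meningeal sums, at 2294 to 2753 and 2615 to 2810, with 1 of 10 markers above 0. In whole cerebellum, fewer cells of a type and less RNA per cell cannot be told apart. The part of these cell types, of the 18S signal and of gene span in the members' differences was not tested beyond the covariate and span values above.

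In the 11Q line, which asks what a knockin with a normal repeat length changes, the members were centred near 0. Their median difference was -0.01, against -0.04 for all genes, and 15 of 31 were above 0, where 40.7% of all genes were. limma called 0 of 31 members (0% of all genes), and 0 members had an unadjusted p below 0.05 (4.23% of all genes). Without 11Q knockin replicate 1, 11Q knockin replicate 2 or 11Q wild type replicate 2, 1 member did. Gss differed by -0.19 ± 0.10, Nfe2l2 by -0.21 ± 0.11, Cat by -0.21 ± 0.11 and Gpx3 by 0.77 ± 0.51, the 4 smallest p-values, each with an adjusted p of 0.939. Gss and Cat were the 2 members whose 11Q knockin arrays all lay below the littermate arrays (6.45%, against 7.17% of all genes), and 0 members lay above (3.24% of all genes). Gpx3 read 5.81, 3.52 and 3.74 in the 11Q knockin and 3.97, 3.64 and 3.15 in its littermates, and replicate 1 of the knockin decided its difference. The same array was the highest of all 12 for Gstm1 (8.63) and Mgst1 (6.96). Gpx4 differed by 0.01 ± 0.10 and Gstm5 by -0.04 ± 0.11. Choroid plexus content differed between the 11Q groups. On the linear scale its markers summed to 267, 89 and 3761 for knockin replicates 1, 2 and 3. Every wild type array of this line lay between 4034 and 4250. Of the 9 measured markers, 0 were above 0 (median difference -2.21). Of 9 oligodendrocyte markers 0 were above 0 too (median -0.19), but their sums overlapped, as did those of the other cell types. The part of tissue content in the 11Q differences was not tested.

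**Figure D4:**
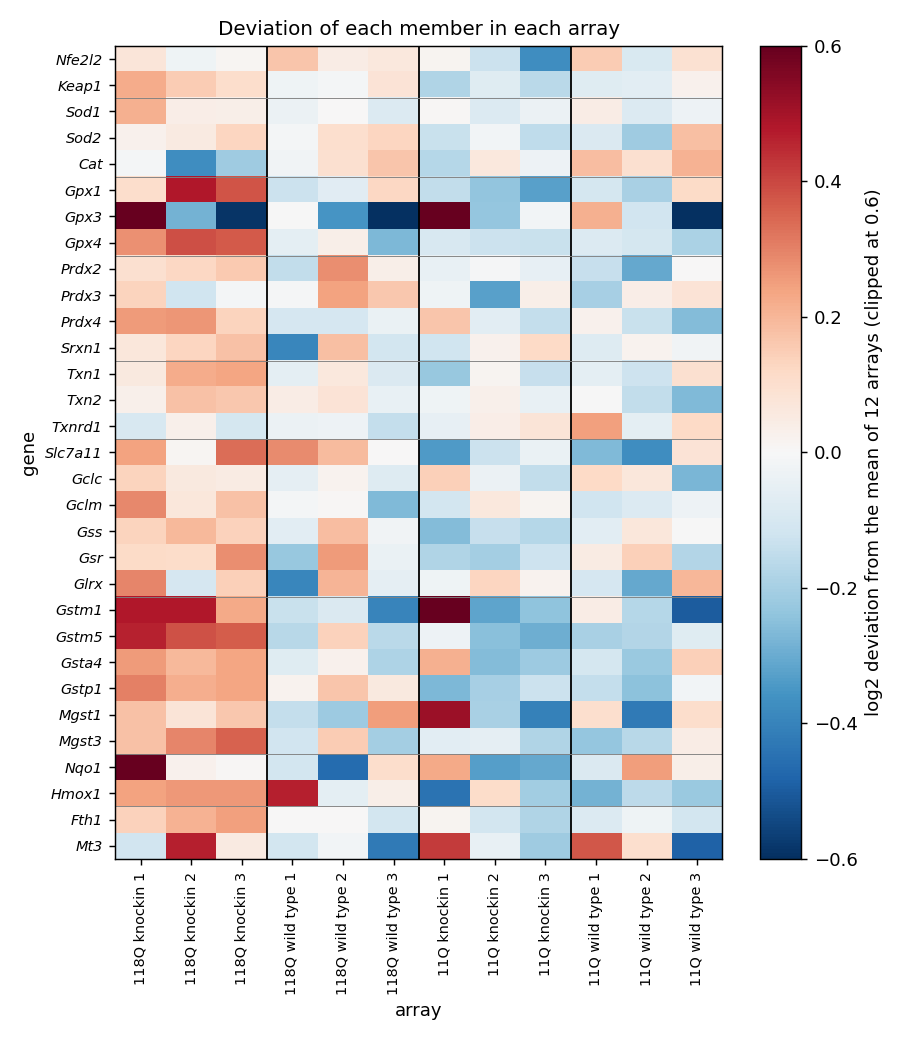
Log2 deviation of each member (rows, grouped by role) from its own mean over 12 arrays, in each array (columns). Red is above and blue below that mean, with colours clipped at 0.6; 26 to 28 of 31 members lie above their mean in each 118Q knockin array, and 5 to 11 in each 11Q knockin array.

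The test of whether the effects of the 2 knockins differ called 0 of 31 members by limma (0% of all genes). The members' median difference of effects was 0.20, against 0.08 for all genes, and 26 of 31 lay above 0, where 62.3% of all genes did. Without 11Q wild type replicate 1 the median was 0.12. At an unadjusted p below 0.05, 4 members (11% of all genes in either direction) had a higher effect in the 118Q line (12.9%, against 8.09% of all genes) and 0 a lower one (2.9% of all genes). These were Gstm5 (0.51 ± 0.16), Gpx4 (0.44 ± 0.14), Gpx1 (0.52 ± 0.18) and Gss (0.31 ± 0.14), with adjusted p-values of 0.346 to 0.434; without 11Q knockin replicate 1 the count was 7. For Gpx4 the effects of the 2 alleles differed by a 95% interval of 0.13 to 0.74 before adjustment, and the difference did not pass over all genes.

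Set directly against each other, the 2 knockins differed in 6 members, all higher in the 118Q knockin (19.4%, against 13.7% of all genes called in either direction and 10.1% called higher). This comparison shares the 118Q knockin arrays with the first one and includes whatever separates the lines. limma called Gstm5 (0.59 ± 0.11, adjusted p = 0.00902), Gpx4 (0.46 ± 0.10, adjusted p = 0.0139), Gstp1 (0.45 ± 0.10, adjusted p = 0.0139), Gpx1 (0.56 ± 0.13, adjusted p = 0.0166), Gss (0.35 ± 0.10, adjusted p = 0.0366) and Keap1 (0.30 ± 0.09, adjusted p = 0.0452). Gstp1 read 9.15, 9.07 and 9.09 in the 118Q knockin and 8.58, 8.66 and 8.72 in the 11Q knockin. The wild types of the 2 lines also did not overlap for Gstp1, with means of 8.94 in the 118Q wild type and 8.72 in the 11Q wild type (0.22, unadjusted p = 0.0413 and adjusted p = 1 by limma), and its difference of effects was 0.23 (unadjusted p = 0.111 by limma). Gss read 4.45, 4.51 and 4.45 in the 118Q knockin, against 4.06, 4.18 and 4.14 in the 11Q knockin. The arrays of the 2 knockins did not overlap in 17 members, all higher in the 118Q knockin (54.8%, against 26.5% of all genes), and 0 members were lower without overlap (11.6% of all genes). Of the 31 members, 28 lay above 0, where 62.5% of all genes did, and 13 were higher at an unadjusted p below 0.05 (41.9%, against 22.6% of all genes), where 30.9% of all genes passed in either direction and 8.32% were lower. The member median was 0.23 against 0.09 for all genes. The 18S signal of the 118Q knockin arrays was also lower, at 8.80 against 10.2, and microglia markers were higher, with sums of 285 to 368 against 164 to 216. Granule cell markers were lower, with sums of 7198 to 7941 against 8248 to 8666. So were the 2 measured of 10 red blood cell markers, at 10.5 to 16.6 against 17.6 to 26.4. Sums of the other listed cell types overlapped. Spearman's rho with gene span had a mean of -0.29 against 0.15.

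With the 18S covariate limma called 0 of all genes, and with the span trend removed it called 0 members and 7% of all genes; 4 and 6 members had an unadjusted p below 0.05. The differences themselves did not all shrink with the 18S covariate, under which their SEs were 0.21 to 0.31: Gstp1 differed by 0.52, Keap1 by 0.52, Gstm5 by 0.45, Gpx1 by 0.42, Gss by 0.28 and Gpx4 by 0.07. With the span trend removed the 6 differed by 0.14 (Keap1) to 0.34 (Gstm5). Gstm5 was called in every fit that left out 1 array, while the count was 1 without 118Q knockin replicate 3, 3 without 118Q knockin replicate 2 and 3 without 11Q knockin replicate 3, where 2.52%, 4.92% and 4.79% of all genes were called. Gpx4 and Gstp1 missed the threshold without 118Q knockin replicate 3 (adjusted p = 0.0618 and 0.0576), and Gpx1 without any of 4 arrays (0.0512 to 0.0717). Gss passed in 1 and Keap1 in 0 of the 6 fits that left out 1 array of either knockin. Keap1 differed by 0.02 with the mean of its probe sets. The wild types of the 118Q and 11Q lines, which carry no knockin allele, differed in 0 members by limma (0% of all genes), with 3 members at an unadjusted p below 0.05 (9.68%, against 2.98% of all genes) and a member median of 0.03. That count was 0 without 11Q wild type replicate 1 and 1 without 118Q wild type replicate 2. Of the 31 members 19 lay above 0, where 52.9% of all genes did, and 2, Gstp1 and Hmox1, did not overlap and were higher in the 118Q wild type (4% of all genes), against 0 lower (2.44% of all genes).

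Prdx2, a peroxiredoxin of neurons and red blood cells, lies at chr8:84969622-84974811 (GRCm38.p6), 0.329 megabases beyond the end of Cacna1a on the same chromosome. Its brightest probe set read 8.56, 8.59 and 8.62 in the 118Q knockin, against 8.32, 8.74 and 8.50 in littermates, and 8.42, 8.45 and 8.42 in the 11Q knockin, against 8.33, 8.15 and 8.46 in littermates. Both differences were small (0.07 ± 0.12 and 0.12 ± 0.12). A dimmer Prdx2 probe set behaved otherwise and is described after its values were seen. It read 3.49, 3.84 and 3.55 in the 11Q knockin and 6.15, 6.03 and 6.14 in its littermates. That is a difference of -2.48 ± 0.49 (unadjusted p = 0.000224, adjusted p = 0.657 by limma). The adjustment ran over the probe sets above the filter that had 1 gene symbol. In the 118Q line the same probe set spread over both groups, at 4.22, 5.26 and 3.72 in the knockin and 5.95, 3.61 and 5.47 in littermates. The probe sets of this gene therefore disagree in the 11Q line by more than the spread between arrays of a group.

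**Figure D5:**
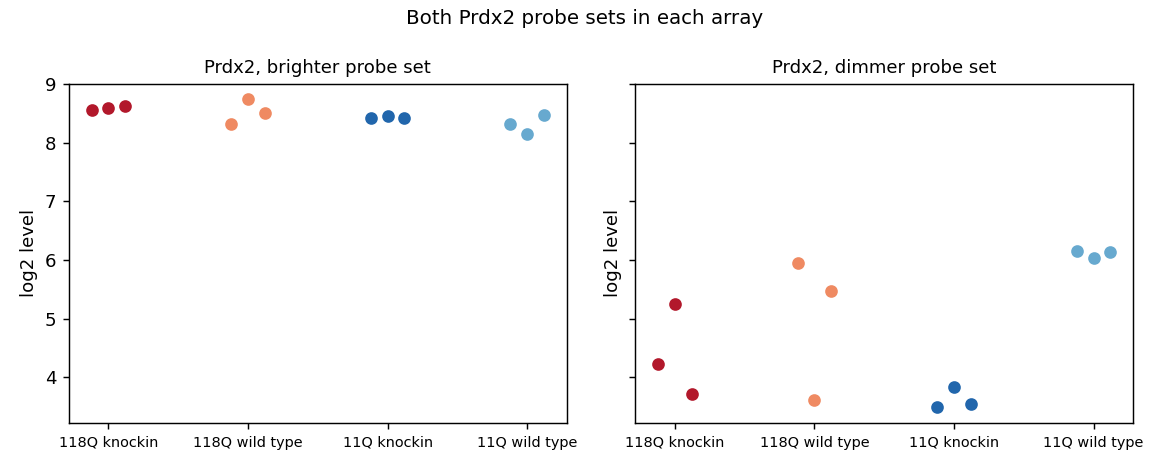
Log2 level of the brighter (left) and the dimmer (right) Prdx2 probe set in each array, 3 points in each group. On the right the 11Q knockin arrays lie at 3.49 to 3.84 and the 11Q wild type arrays at 6.03 to 6.15, and the 118Q groups spread between.

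Of a wider list of 86 genes of the same pathways that are not members, 72 were measured. limma called 0 of them in either direction in the 118Q line, and at an unadjusted p below 0.05 11 were higher (15.3%, against 12% of all genes) and 2 lower (2.78%, against 6.7% of all genes). The list's median was 0.063, against 0.057 for all genes. The 2 lower ones were Abcc4, an export pump (-0.44), and Gpx2, a glutathione peroxidase of the gut (-0.52), named after their values were seen. The 6 with the smallest p were all higher in the 118Q knockin: Gstk1, a glutathione transferase of mitochondria and peroxisomes (0.43 ± 0.10, adjusted p = 0.0693), Blvrb, a biliverdin reductase (0.45, adjusted p = 0.104), Txnrd2, the mitochondrial thioredoxin reductase (0.37), Selenop, the selenium carrier (0.30), and the metallothioneins Mt1 (0.67) and Mt2 (0.70). In the 11Q line these 6 differed by -0.04 (Selenop) to 0.13 (Mt1).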

How the data were processed

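Each of 12 arrays holds cerebellar RNA of a mouse. The deposited table gives a log2 level for every probe set; per the submitters' processing notes, the authors used RMA. Its settings are not stated in what was used here. Array medians lay between 2.21 and 2.38, lower than RMA usually gives, so values serve as relative log2 levels, and levels of different genes are not compared. No normalization was added. Precision is limited by having 3 arrays in a group.

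Of 45101 probe sets, 34958 had 1 gene symbol in the array annotation, 932 several and 9211 none. The 40% with the lowest mean were removed and the brightest probe set per symbol was kept, which gave 12672 genes. limma 3.58.1 (R 4.3.3) fitted 1 mean for each group over the 12 arrays, and the procedure was tested on simulated data. Genes were called where the two-sided p, adjusted over all genes by Benjamini-Hochberg, was below 0.05. Intervals are for a single gene, unadjusted. Gene spans came from RefSeq (GRCm38.p6).

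Members and lists were chosen with earlier results of these data known, so no test was run over a list. Values are given in full for members called in any comparison, for the 10 with the smallest unadjusted p in the 118Q line, the 4 smallest in the 11Q line and in the difference of effects, and for Nfe2l2 and Keap1. Alternatives were no filter, averaging probe sets in place of the brightest, arrays centred on their median, quantile normalization, array weights, only the groups compared, the replicate number as a block, the 18S signal as covariate, removal of the span trend, and leaving out arrays.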

Additional observations from a re-analysis of the deposited data

How the results depend on the processing

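Under the alternatives, the member median in the 118Q line stayed above 0 in all 16, at 0.098 to 0.23. It was 0.11 with the 18S signal as covariate and 0.098 with the gene span trend removed, and 0.14 to 0.23 when 1 array was left out. Members called by limma in the 118Q line numbered 7 with array weights (1 of them, Cat, lower), where 24.7% of all genes were called, and 0 or 1 when 1 array was left out. The 1 was Gpx4 without 118Q knockin replicate 1, where 5.58% of all genes were called. The weights ended before their convergence tolerance was met. The 11Q line had 0 members called under all 16 alternatives. For the difference of effects, the median was 0.13 with quantile normalization and 0.065 with the span trend removed, 2 members were called with array weights (4.83% of all genes), and leaving out 1 array gave 0.12 to 0.23. For the 118Q against the 11Q knockin, array weights called 17 members (54.8%, against 48.2% of all genes), the 18S covariate 0 (median 0.15, 0% of all genes) and span trend removal 0 (median 0.11, 7% of all genes). Leaving out 1 array gave 1 to 7 members, where 2.52% to 17.9% of all genes were called. The median between the wild types ran from -0.037 to 0.062 when 1 array was left out. Prdx4 turned to -0.011 with the mean of its probe sets and Cat to 0.037 with the 18S covariate, both in the 118Q line; the cause was not tested. Members at an unadjusted p below 0.05 in the 118Q line numbered 5 without both wild type replicates 3, against 10 with all arrays, and 4 to 11 when 1 array was left out.

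The sample titles do not say whether replicate numbers pair the animals, and correlations with 3 arrays in a group cannot decide it. Same-numbered knockin and wild type arrays of the 118Q line had deviations that correlated at -0.08, -0.11 and -0.03 across genes. Those of the 11Q line correlated at 0.19, -0.17 and 0.01. Differently numbered arrays correlated at -0.25 to 0.32 in the 118Q line and at -0.16 to 0.16 in the 11Q line. With a replicate block within lines, 0 members were called in either line and in the difference of effects, and 8 in the 118Q line had an unadjusted p below 0.05. A replicate block across lines, added after seeing the data, called 5 members between the knockins, without Keap1, where 14.2% of all genes were called. The alternatives of the last 2 comparisons were also added after seeing the data.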
